A study of Rattus norvegicus with 59 samples.

Results

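Nuclear RNA of left ventricular cardiomyocytes was compared between rats with a banded aorta and sham-operated rats. These 8 libraries, 4 from banded and 4 from sham rats, were taken by their labels from the 59 samples of the series. In the banded group, male Sprague Dawley rats of about 170 g carried a silk ligature tightened around the ascending aorta, and after 6 weeks the animals kept were those whose left ventricle was hypertrophied without failing, per the labels. In the sham group, male Sprague Dawley rats of the same weight had the operation and the same analgesia, but the ligature was not tightened. The banded group therefore stands for selected, compensated hearts and says nothing of failing ones. In both groups, nuclei were flow-sorted for PCM1, and at least 100000 sorted nuclei were used for each RNA preparation. As a second comparison within the series, 4 libraries of the same kind came from rats trained on a treadmill for 6 weeks. Another 4 came from untrained control rats, and the rats of both groups weighed about 280 g. The labels do not state that each library is a separate animal, so p-values describe the spread between libraries, which may be partly technical.

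Banding the ascending aorta raises the pressure against which the left ventricle ejects. Cardiomyocytes of adult hearts rarely divide and respond mainly by growing, a process accompanied by return of fetal isoforms of contractile proteins, secretion of natriuretic peptides and altered use of fuels. PCM1, a protein of the centriolar satellites, accumulates at the nuclear envelope of differentiated cardiomyocytes, so that sorting on it separates their nuclei from those of fibroblasts, endothelial cells and other cells of the ventricle. RNA taken from nuclei is rich in unspliced and recently made transcripts and holds little of the stable cytoplasmic mRNA. The series also followed 2 histone marks associated with gene silencing, dimethylated H3K9, which the enzyme pair G9a and GLP deposits, and H3K27me3. RNA of the same kinds of nuclei is its expression readout.

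Genes are given by Ensembl ID only. None of the 22938 IDs of the count table could be paired with a gene name (0 matched), so the pathway lists and cell type markers, 425 genes written by symbol, were not measured here. Natriuretic peptide genes, myosin genes and the methyltransferase genes are among them. The groups of genes that could be followed come from the authors' deposited table that compares PCM1-negative with PCM1-positive nuclei, which the labels tie to control rats and not to the surgery experiment. In it, 604 genes were over 8-fold higher in PCM1-positive nuclei and 1319 over 8-fold higher in PCM1-negative nuclei at a false discovery rate under 0.05. The table's header does not give the direction of its fold. The direction was read from the surgery libraries, where the 596 tested genes of the first set had a median level of 6.73 log2 CPM (CPM, the count scaled to the library's normalised total) and the 1251 tested genes of the second set one of 2.79 log2 CPM. This reading takes the surgery libraries to be from PCM1-positive nuclei, so it is no check of the authors' label of cardiomyocyte nuclei. That label was not examined, since the defining markers carry no names.

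Depth was 10.5, 14.4, 2.58 and 10.0 M counts in banded replicates 1 to 4, and 14.1, 3.18, 8.11 and 12.7 M in sham replicates 1 to 4. No library held a count under 1, and between 30.6% and 40.8% of the gene IDs stood at that minimum. Sham replicates 2 and 3 were almost the same library. Their log2 CPM values had a Pearson r of 0.988 across genes, and the squared differences of their counts were 1.06 times what counting alone gives over genes with 21 to 750 counts in both together. For the 11 remaining within-group pairs this ratio ran from 4.81 to 21.5. Over 10876 genes of all levels the ratio of the pair was 1.29, so a small difference beyond counting remained. The pair was therefore added and counted as 1 sample, which gives 4 banded and 3 sham samples. Values with the pair kept apart are printed beside the results. A second pair of alike libraries crossed the groups. Banded replicate 1 and sham replicate 1 had an r of 0.986, although their counts differed by 3.54 times the counting noise.

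The closest match of a library was often in the other group. Of the 8 libraries, 5 had their closest match in the other group: both replicates numbered 1 with each other, both replicates numbered 4 with each other, and banded replicate 3 with sham replicate 4. Between groups, r across genes had a median of 0.961 over 16 pairs. Within groups it had a median of 0.951 over 11 pairs, the near-identical sham pair aside. These r values are across genes, which are not independent replicates, and serve as a description.

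Libraries of both groups differed in the share of counts from genes of PCM1-negative nuclei. Genes over 8-fold higher in PCM1-negative nuclei gave 4.45, 0.859, 1.31 and 1.68% of the counts in banded replicates 1 to 4. In sham replicates 1 to 4 they gave 4.32, 0.685, 0.658 and 1.58%, and 0.655% in the pair added. Both replicates numbered 1 were high, and the rest of the 2 groups covered nearly the same range. The exact Clopper-Pearson 95% interval was widest in the smallest library, banded replicate 3, at 1.30 to 1.33%, and covers counting error only. The mean share was 2.08 ± 1.62% in banded (SD, n = 4) and 2.18 ± 1.90% in sham samples (SD, n = 3), and did not differ beyond this spread (exact permutation test, two-sided, p = 0.914, where 0.0286 is the smallest p possible). As 4 separate libraries, the sham group averaged 1.81 ± 1.73% (SD, n = 4), with an exact permutation p of 0.629. This n counts the near-identical sham pair as separate samples. Without both replicates numbered 1, the shares were 1.29 ± 0.413% in banded (SD, n = 3) and 1.12 ± 0.651% in sham samples (SD, n = 2).

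Genes over 8-fold higher in PCM1-positive nuclei moved the other way. They gave 23.5, 30.3, 30.0 and 28.9% of the counts in banded replicates 1 to 4, against 24.6, 31.6, 31.8 and 30.7% in sham replicates 1 to 4. Again both replicates numbered 1 stood apart, here as the lowest. The means were 28.2 ± 3.16% in banded (SD, n = 4) and 29.0 ± 3.85% in sham samples (SD, n = 3), and the difference was within this spread (exact permutation test, two-sided, p = 0.657). In the 8 libraries of the exercise experiment the PCM1-negative share lay between 0.536% and 0.956%. That range covers the sham pair and banded replicate 2, and every other library of the surgery experiment lay above it. The share counts reads, so fewer nuclei of a type and less RNA per nucleus cannot be told apart in it.

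**Figure D1:**
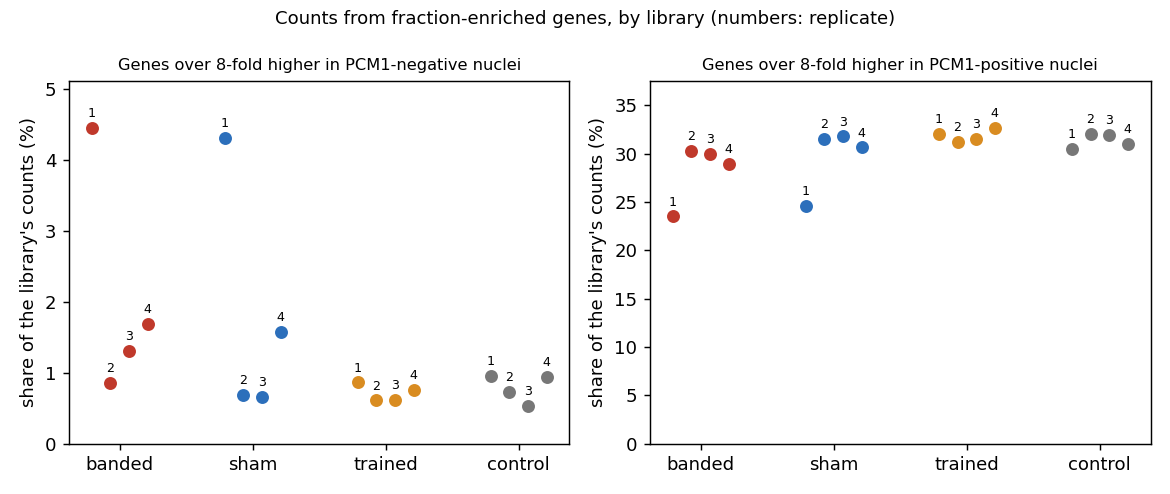
Share of each library's counts, in percent, from genes over 8-fold higher in PCM1-negative nuclei (left) and in PCM1-positive nuclei (right), for banded, sham, trained and control libraries, with each point a library and its number the replicate. Banded replicate 1 at 4.45% and sham replicate 1 at 4.32% lie above all other libraries on the left and are the lowest on the right.

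The same structure led the principal components of log2 CPM over the 7 samples. The first component held 50.7% of the variance. It placed banded replicate 1 at -56.3 and sham replicate 1 at -55.0 at the same end, and the added sham pair at 54.7 at the other. The second held 23.2% and set banded replicate 3, the library with fewest counts, at 64.7 apart from all other samples, which lay between -16.6 and -4.25. On the third component, with 9.52% of the variance, the groups did not overlap. Banded samples lay between -32.1 and -1.89 and sham samples between 2.51 and 23.5 (exact permutation test, two-sided, p = 0.0286, the smallest possible, and 0.171 after Benjamini-Hochberg adjustment over the 6 components).

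**Figure D2:**
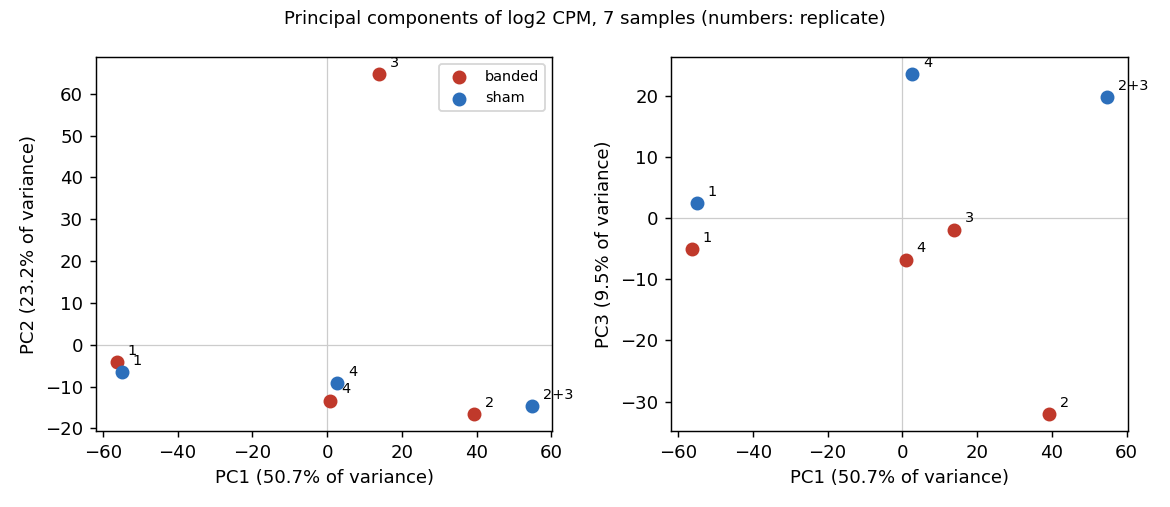
Principal components of log2 CPM for 4 banded and 3 sham samples, with the first component against the second (left) and the third (right) and replicate numbers beside the points. On the first component banded replicate 1 (-56.3) and sham replicate 1 (-55.0) lie together, and on the third all banded samples lie below all sham samples.

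Across single genes, a single difference between banded and sham samples passed the test. Of 12689 genes tested, edgeR's quasi-likelihood test called 0 higher and 1 lower (0.00788%) at a Benjamini-Hochberg adjusted p under 0.05. An unadjusted p under 0.05 was reached by 147 genes in the higher direction (1.16%) and by 87 in the lower (0.686%), 234 in all (1.84%). With the sham pair kept apart, 0 were called higher and 1 lower of 12305 (0.00813%). An unadjusted p under 0.05 was then reached by 221 genes in the higher direction (1.8%) and 199 in the lower (1.62%), 420 in all (3.41%). Both totals lie under the share of 0.05 that this threshold gives when no gene differs. With 1 library left out in turn, the number at an unadjusted p under 0.05 ran from 120 (without sham replicate 4) to 377 (without sham replicate 1), and was 351 without banded replicate 1. On the counts with the pair added, DESeq2 called 0 genes higher and 2 lower and limma voom called 0 genes, with 247 at an unadjusted p under 0.05. On the counts of all 8 libraries, DESeq2 called 12 higher and 4 lower, all 16 of them in the authors' deposited list. That list was chosen on the same libraries, so the overlap is no independent evidence. It holds 4.76% of the 12689 genes tested. On the same 8 libraries, limma voom called 0 higher and 1 lower.

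ENSRNOG00000008356 was the gene called, and it was lower in banded than in sham libraries. It had 10, 3, 2 and 2 counts in banded replicates 1 to 4, against 327, 113, 256 and 286 counts in sham replicates 1 to 4. Every banded library lay far below every sham library. Scaled for depth, it averaged 0.517 ± 0.350 CPM in banded samples (SD, n = 4) and 26.5 ± 7.10 CPM in sham samples (SD, n = 3), a mean 51.2 times higher in sham. The fitted log2 fold change was -5.80 (SE 0.48, edgeR adjusted p = 0.0178), and -5.91 (SE 0.45, adjusted p = 0.00373) with the sham pair kept apart. Because a banded library with no read would be stored at the minimum of 1, the fitted fold depends on that minimum. With 1 subtracted from every count it was -6.20 (edgeR adjusted p = 0.0281). The authors' deposited table lists the same gene with a difference of -5.80 on the log2 scale and a false discovery rate of 0. It is not in the authors' fraction table, so the nuclei it belongs to were not analysed here.

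The exercise experiment places this gene differently from what the surgery groups alone would show. ENSRNOG00000008356 had 1, 2, 4 and 1 counts in trained replicates 1 to 4 and 1 count in each of the 4 control libraries. Of the 16 libraries, the 4 sham libraries were thus the ones with more than 10 counts. Banded, trained and control libraries were all at or near the stored minimum. No other gene in the table had at most 10 counts in every banded, trained and control library and at least 100 in every sham library (1 gene in all), and 0 genes had the reverse pattern, high only in the banded libraries. The banding effect minus the training effect was -6.65 in log2 units (SE 0.94, edgeR interaction, adjusted p = 0.0408), the single call (0.00791%) among 12650 genes for that contrast, with 488 at an unadjusted p under 0.05 (3.86%). No training fold is given for it, since both exercise groups were at or near the minimum, and the size of the difference depends on that minimum too. With 1 subtracted from every count it was -9.99 and did not pass (edgeR adjusted p = 0.911). This call held when banded replicate 1 or either library of the sham pair was left out, and was lost without each of the other 13 libraries. The call of the banding effect was lost when banded replicate 2, 3 or 4 or sham replicate 4 was left out (edgeR adjusted p = 0.0885, 0.222, 0.109 and 0.119), and without the sham pair (0.0555), while the fold stayed between -6.47 and -5.48 over the 8 libraries left out in turn.

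The other genes named were picked for a low p and for groups that did not overlap, so their separation was set by that choice. None of them passed edgeR's test in the main fit. ENSRNOG00000026472 had 32.6, 32.9, 39.1 and 41.9 CPM in banded replicates 1 to 4, against 66.9, 78.0 and 114 CPM in sham replicate 1, the added pair and sham replicate 4. The highest banded value lay well below the lowest sham value. Its means were 36.6 ± 4.62 CPM in banded (SD, n = 4) and 86.4 ± 24.8 CPM in sham samples (SD, n = 3), a log2 fold change of -1.24 (SE 0.21, edgeR adjusted p = 1.00). In the authors' fraction table the log2 difference of PCM1-negative minus PCM1-positive nuclei was -2.38 for this gene. Trained libraries averaged 87.2 ± 21.4 CPM and control libraries 78.4 ± 19.9 CPM (SD, n = 4 each). The banded mean was thus the lowest of the group means, but the 2 experiments were scaled separately, so these levels compare only roughly. The difference between the banding and training effects was -1.41 (SE 0.32) and did not pass (edgeR adjusted p = 0.960). DESeq2 gave this gene an adjusted p of 0.00369 on the same counts. The authors' deposited table lists a difference of -1.05 with a false discovery rate of 0.

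ENSRNOG00000020807 was at 48.3, 49.7, 44.7 and 31.9 CPM in banded replicates 1 to 4, against 25.3, 25.2 and 19.1 CPM in sham replicate 1, the added pair and sham replicate 4. Banded replicate 4 was the lowest of its group and still above every sham sample. The log2 fold change was 0.91 (SE 0.21, edgeR adjusted p = 1.00). In the exercise experiment it averaged 19.8 ± 4.58 CPM in trained and 28.9 ± 6.23 CPM in control libraries (SD, n = 4 each), a log2 fold change of -0.52 (SE 0.20, edgeR adjusted p = 0.643). The difference between both effects was 1.43 (SE 0.30) and did not pass either (edgeR adjusted p = 0.798). The authors' deposited table lists 0.95 with a false discovery rate of 7.16e-08.

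ENSRNOG00000036615 was a gene of few reads, with 28, 52, 8 and 10 counts in banded replicates 1 to 4, against 5, 2, 1 and 6 counts in sham replicates 1 to 4. All 8 exercise libraries held between 1 and 3 counts of it. Scaled for depth it averaged 2.62 ± 1.24 CPM in banded (SD, n = 4) and 0.337 ± 0.157 CPM in sham samples (SD, n = 3), a log2 fold change of 2.89 (SE 0.60, edgeR adjusted p = 1.00). The sham side rests on 1 to 6 counts per library, so the size of this fold is poorly set. The authors' deposited table lists a difference of 2.81 with a false discovery rate of 0.0981.

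**Figure D3:**
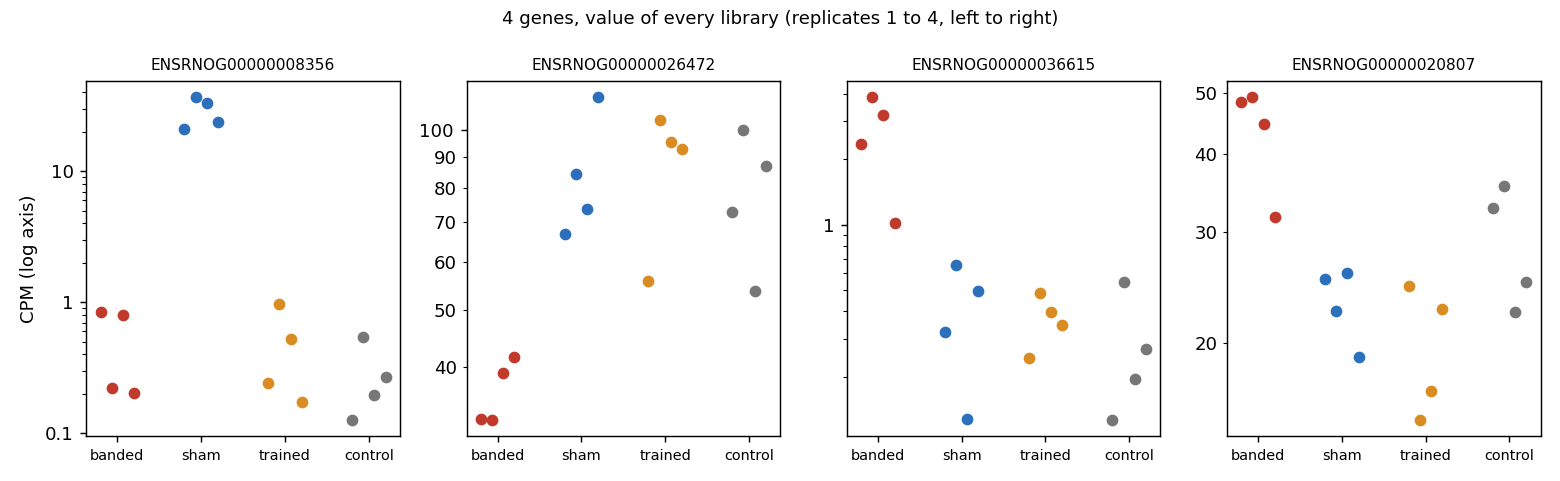
Level of 4 genes in CPM, on a log axis, in every banded, sham, trained and control library, with replicates 1 to 4 from left to right. ENSRNOG00000008356 is high in the 4 sham libraries and near the stored minimum in the other 12. In the other 3 genes, picked for groups that did not overlap, the banded libraries lie apart from the sham libraries.

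Most genes differed little. The median absolute log2 fold change was 0.14 over the 12689 genes, against a median SE of 0.27. The spread between samples of a group was larger for genes of low level. The median SE was 0.58 for the 1204 genes under 1 log2 CPM and 0.20 for the 3313 genes between 5 and 7 log2 CPM. Past 2-fold, 161 genes were higher and 39 lower in banded samples. Without both replicates numbered 1 the numbers were 365 higher and 86 lower. Of the 161, 74 were at or under 1 log2 CPM, 45 lay over 3 log2 CPM and 12 over 7 log2 CPM. Of the 39, 12 were at or under 1 log2 CPM, 14 lay over 3 log2 CPM and 2 over 7 log2 CPM. With the pair kept apart, 103 of the 161 and 25 of the 39 were still past 2-fold in the same direction.

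Complete separation of the groups was uncommon in either direction. All banded samples lay above all sham samples in 197 genes (1.55%) and below them in 235 genes (1.85%). If the samples were exchangeable, a share of 0.0286 of genes would be separated in each direction, and neither share reached that. On the higher side the median log2 fold change was 0.59, and on the lower side -0.38. Of the 197 genes, 47 were past 2-fold, and of the 235 genes, 12 were. With the pair kept apart, 127 of the 197 and 167 of the 235 were still separated, among totals of 130 higher (1.06%) and 174 lower (1.41%), 304 in all (2.47%).

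Both classes of fraction-enriched genes were centred near 0. The 596 tested genes over 8-fold higher in PCM1-positive nuclei were centred on a log2 fold change of -0.02, and the 1251 over 8-fold higher in PCM1-negative nuclei on -0.04 (medians), beside -0.01 over all genes tested. No gene of either class passed the adjusted test (edgeR, 0 and 0). At an unadjusted p under 0.05 there were 8 higher (1.34%) and 11 lower (1.85%) in the PCM1-positive class and 3 higher (0.24%) and 0 lower in the PCM1-negative class, beside 1.16% higher and 0.686% lower over all genes tested. The median of the PCM1-negative class turned to 0.15 with the sham pair kept apart, to 0.77 without sham replicate 1 and to -0.64 without banded replicate 1, so its sign was set by single libraries. Without both replicates numbered 1 it was 0.19.

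Within groups, the PCM1-negative class was the most variable of the classes. The median SD of a gene over banded samples was 0.96 log2 CPM in the class over 8-fold higher in PCM1-negative nuclei, against 0.36 over all genes. Over sham samples it was 1.21 against 0.28. Its median deviation from the gene mean was 1.16, -0.84, -0.24 and 0.02 log2 CPM in banded replicates 1 to 4, and 1.19, -1.21 and -0.03 log2 CPM in sham replicate 1, the added pair and sham replicate 4. Both groups thus held a high, a low and a middle sample. For genes that did not differ between fractions, the median deviation stayed within 0.08 log2 CPM of 0 in every sample. Single genes of this class varied more, with a median SD of 0.28 log2 CPM over banded and 0.18 over sham samples. Of these 5659 genes, 2.07% lay higher and 3.09% lower in all banded samples. The shares were 0.16% and 0.08% of the 1251 PCM1-negative genes, whose spread within groups was wider, and 1.55% and 1.85% of all genes tested.

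**Figure D4:**
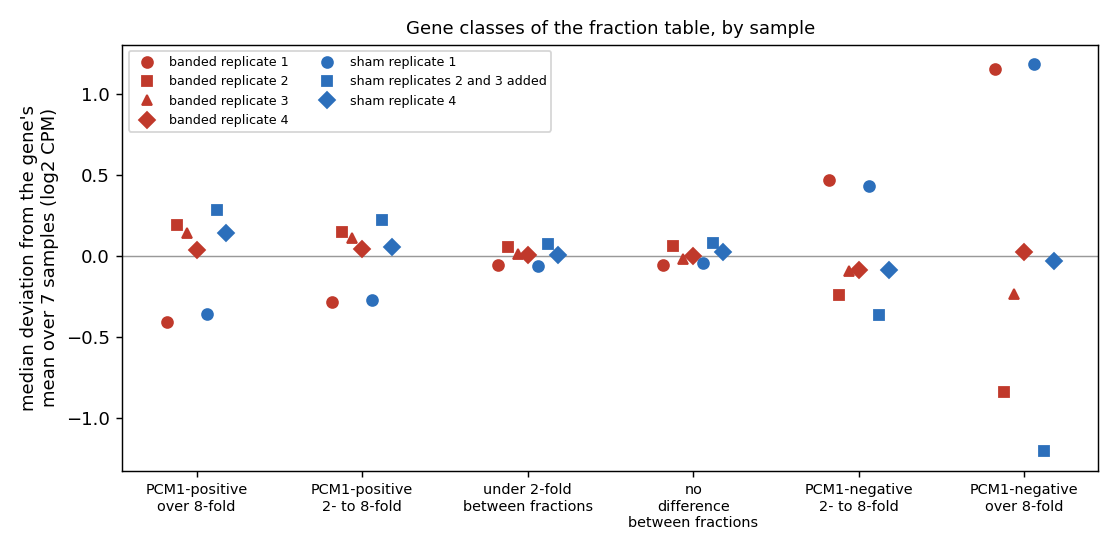
Median deviation of each sample from the gene's mean over 7 samples, in log2 CPM, for 6 classes of genes by their difference between PCM1-positive and PCM1-negative nuclei, with banded samples in red and sham samples in blue. In the class over 8-fold higher in PCM1-negative nuclei, banded replicate 1 (1.16) and sham replicate 1 (1.19) lie far above 0. The medians of genes without a difference between fractions lie close to 0 in all samples.

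When the log2 share of PCM1-negative-enriched genes was added to the fit as a covariate, the common biological coefficient of variation was 20.8%, against 33.8% without it. The share is computed from the same counts, and its genes are among those tested. Part of this fall is therefore built in, and how large a part was not tested. The genes with an unadjusted p under 0.05 then numbered 506 of 12689 (3.99%), and the call was again 0 higher and 1 lower. With the pair kept apart as well, the coefficient was 19.2% and 737 genes had an unadjusted p under 0.05 (5.99%), with the next lowest adjusted p at 0.137 (edgeR). Leaving out both replicates numbered 1 gave 26.3% and 340 genes (2.71%). The fold of ENSRNOG00000008356 was -5.78 with the covariate. Of the genes past 2-fold without the covariate, 135 of the 161 higher and 31 of the 39 lower were past 2-fold in the same direction with it.

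The authors' deposited table lists more genes for this comparison. With a false discovery rate threshold of 0.05 it holds 604 genes, of which banded rats had more RNA of 335 and less of 269. These genes were abundant, with a median of 7.36 log2 CPM, against 4.25 log2 CPM over all genes tested. The listed differences were mostly small. Their median size was 0.43 on the log2 scale, 252 genes were past 0.5, and 89 were past 1, of which 74 were higher and 15 lower in banded rats. The authors chose these genes on the same libraries, so their direction in the counts is no independent evidence.

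In the counts, 582 of the 604 (96.4%) had the listed sign with the pair added and 593 (98.2%) with it kept apart. An unadjusted p under 0.05 with that sign was reached by 116 genes (19.2%) with the pair added, beside 1.84% of all genes tested, and by 192 (31.8%) with it kept apart, beside 3.41% (edgeR). The groups were separated in the listed direction in 77 genes (12.7%) with the pair added, beside 3.4% of all genes tested in either direction. With the pair kept apart they were separated in 74 (12.3%), beside 2.47% in either direction.

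The listed genes were spread unevenly over the fraction classes. Of the 596 tested genes over 8-fold higher in PCM1-positive nuclei, the authors' deposited table lists 38 as higher (6.38%) and 85 as lower (14.3%) in banded rats. Of the 1251 genes over 8-fold higher in PCM1-negative nuclei, it lists 41 as higher (3.28%) and 1 as lower (0.08%). Over all genes tested the shares were 2.64% higher and 2.12% lower. The listed genes of the PCM1-positive class were thus mostly lower and those of the PCM1-negative class, with 1 exception, higher. No test of this split was run.

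Split by direction and by 5 of the fraction classes, the listed genes form 10 sets, and in 7 of them the listed median was larger in size than that in the counts with the pair added. In the other 3, which hold 38, 8 and 1 genes, it was smaller. The 41 PCM1-negative genes listed as higher had a median difference of 0.75 in the authors' deposited table. In the counts their median log2 fold change was 0.26 with the pair added, 0.53 with it kept apart and 0.53 without both replicates numbered 1. With the pair added, 1 of the 41 was separated between groups, beside 1.55% of all genes tested on the higher side. The 85 PCM1-positive genes listed as lower had a median of -0.38 in the authors' deposited table. In the counts it was -0.26 with the pair added and -0.33 with it kept apart. With the pair added, 5 of the 85 were separated, beside 1.85% of all genes tested on the lower side. The 124 listed genes higher in banded rats that did not differ between fractions had a median of 0.57 in the authors' deposited table. In the counts it was 0.43 with the pair added and 0.50 with it kept apart. With the pair added, 19 of the 124 were separated, beside the same 1.55% of all genes tested. The PCM1-negative share varied between the same libraries, and its part in these listed differences was not tested. With the covariate the medians of the 41, 85 and 124 genes were 0.34, -0.23 and 0.46. The 41 genes belong to the set that the covariate is computed from, so their median with it is not independent of them.

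**Figure D5:**
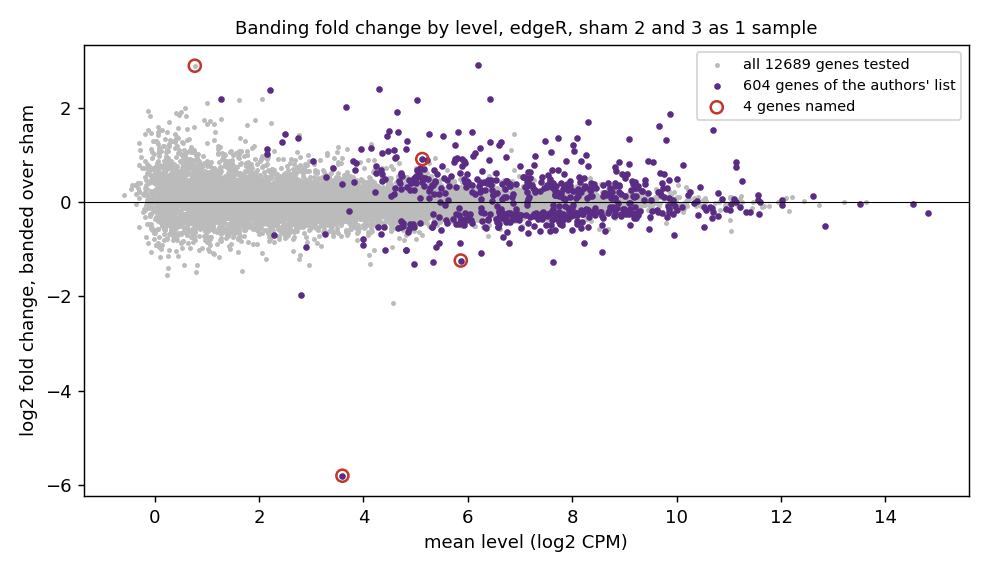
Fitted log2 fold change of banded over sham samples against the mean level in log2 CPM, for the 12689 genes tested (grey), the 604 genes of the authors' list (purple) and the 4 genes named (red rings). The listed genes lie mostly among abundant genes with folds within 1 of 0, and ENSRNOG00000008356 at -5.80 lies far below all others.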

How the data were processed

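Whole-number read counts for each gene ID were deposited by the authors as raw counts, per the file headers. Deposited log2 RPM values have 1 column per group and come with a false discovery rate (an adjusted p-value), and the authors' fraction table gives log2 fold changes with such rates, per the file headers. Bowtie, SAMtools, edgeR and R 2.15.1 stand in the submitters' processing notes, with no roles. The genome build, the counting rule and whether strand was used are not given in the sources, and overlapping or near-copy genes are uncertain.

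Counts were tested with edgeR 4.0.16 in R 4.3.3 (quasi-likelihood F test, TMM factors from the tested genes, filterByExpr with minimum count 10 and minimum total 15, Benjamini-Hochberg adjustment over all genes tested, threshold 0.05), with DESeq2 1.42.0 and limma 3.58.1 (voom) as alternatives. CPM is the count scaled to the library total with those factors, as edgeR's cpm function gives it. SEs come from the F statistic. Log2 CPM values used a prior count of 2. The counts of sham replicates 2 and 3 were added and 1 was taken off, so that the smallest count stayed 1. Replicate numbers were not used as pairs in the main fit: deviations of same-numbered libraries correlated over 0.1 in 3 of the 4 numbers only. Genes were named by the lowest p among called genes and then among genes whose groups do not overlap, at most 2 IDs in each direction because no names were paired (the gene table used, of 47357 genes, holds 0 Ensembl IDs). The groups, gene lists, tests and most alternatives were chosen with earlier results of these data known. Figures used matplotlib.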

Additional observations from a re-analysis of the deposited data

Results flagged for a closer look

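The banding effect on ENSRNOG00000008356 differed from the training effect by -6.65 on the log2 scale (edgeR interaction, adjusted p = 0.0408). The gene was lower in 4 of 4 banded libraries (2 to 10 counts) than in any sham library (113 to 327 counts). Trained and control libraries were at 1 to 4 counts, so the sham libraries alone were high. No training fold is given, since both exercise groups were at or near the stored minimum. With 1 of the 16 libraries left out in turn, the edgeR adjusted p ran from 0.00808 to 0.491, the call was lost in 13 of the 16 fits, and the difference lay between -7.32 and -6.30. The size rests on the stored minimum of the counts: with 1 subtracted from every count it was -9.99 and did not pass (edgeR adjusted p = 0.911). None of the 17 groups of 4 values examined, from banded, trained or control libraries, held a sample singled out by Dixon's ratio. Sham samples were not examined in this way. Banded replicate 1, with a PCM1-negative share of 4.45%, was not singled out either.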

How the results depend on the processing

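Over all alternatives run, the direction of the banding fold of ENSRNOG00000008356 did not change (-6.62 to -5.48). The number of genes called lower for banding was 2 with DESeq2, and 0 with limma voom and without the sham pair. It lay between 0 and 1, and the number called higher at 0, with 1 library left out in turn. Chosen after the data were seen, edgeR's likelihood-ratio test with the pair kept apart called 8 genes higher and 4 lower of 12305 tested. The same test with the replicate number as a block called 57 higher and 17 lower of 12305, and 60 of these 74 are in the authors' deposited list. The replicate block in the quasi-likelihood test, with the pair kept apart, called 0 higher and 1 lower (ENSRNOG00000008356, edgeR adjusted p = 0.00185). It left 792 of 12305 genes at an unadjusted p under 0.05. Of these, 300 are in the authors' list with its sign, which is 49.7% of that list. The authors chose their list on the same libraries, so these overlaps are no independent evidence. The list holds 4.76% of the genes tested in the main fit. The labels do not say whether same-numbered libraries share more than a number. Their deviations correlated at 0.764, 0.506, 0.155 and 0.086 for numbers 1 to 4. Banded replicates 1, 3 and 4 each correlated best with the sham replicate of their own number. Banded replicate 2 correlated best with sham replicate 3 (0.566), which is nearly the same library as sham replicate 2. For the banding effect minus the training effect, DESeq2 called 2 higher and 2 lower. The number lower was 0 with limma voom, with 1 subtracted from every count, with the replicate block and without the sham pair, and 0 to 1 with 1 library left out. The difference of PCM1-negative shares (main -0.11 percentage points) was 0.268 with the pair kept apart (exact permutation p = 0.629) and -0.897 to 0.961 with 1 library left out. The median fold of PCM1-negative genes ran from -0.64 to 0.77 and that of PCM1-positive genes from -0.19 to 0.10 over all alternatives. Keeping the pair apart moved the genes of the authors' list with an unadjusted p under 0.05 to 192, against 116. The cause of these changes was not tested. Alternatives for pathway lists and marker sums were not run, since no IDs were paired with names. The median SE of genes under 1 log2 CPM was 0.58, against 0.27 over all genes.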
